A study of Mus musculus with 24 samples.

Results

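The genes described here are 10 members of the transforming growth factor beta (TGF-beta) pathway, taken by symbol from the 24421 gene symbols counted in adipose tissue of male and female mice. They were the ligands Tgfb1, Tgfb2 and Tgfb3, the receptors Tgfbr1 and Tgfbr2, the SMAD genes Smad3 and Smad7, the feedback genes Skil and Pmepa1, and Cilp, which encodes a matrix protein. Total RNA was sequenced from 24 libraries in 6 groups of 4. The 6 groups were wild-type (WT), STAT5B-Y665F and STAT5B-Y665H females, and males of the same 3 genotypes, all C57BL/6 mice at 2 months of age. STAT5B carries signals from the receptors of growth hormone and of cytokines to the nucleus, and both mutations replace the tyrosine Y665 of its SH2 domain, with phenylalanine in Y665F and with histidine in Y665H. The fat depot, the zygosity of the mutations and whether the libraries of a group came from separate animals are not given in the sources used here, so every p-value measures only the spread between these libraries. Pmepa1 and Cilp were singled out by values from these same files, Pmepa1 by the difference between Y665F and WT females and Cilp by the difference between Y665H and Y665F males. Their values in those libraries are therefore given as a description with no test, and the other 8 genes are called the core genes below.

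TGF-beta ligands are secreted in a latent complex and, once released, bind the type II receptor encoded by Tgfbr2, which recruits and phosphorylates the type I receptor encoded by Tgfbr1. The type I receptor phosphorylates SMAD2 and SMAD3, which enter the nucleus with SMAD4 and act on target genes. Smad7, Skil and Pmepa1 are themselves targets of the pathway and encode proteins that dampen it: SMAD7 blocks and degrades the type I receptor, SKIL (SnoN) represses SMAD-driven transcription, and PMEPA1 binds receptor-activated SMADs. CILP, the cartilage intermediate layer protein, is a secreted matrix protein that binds TGF-beta and reduces its signalling. In fat, the pathway is known for holding back adipocyte differentiation and for driving matrix deposition.

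RefSeq promoter entries on GRCm38.p6 (mm10) matched 6 of the 10 genes: Tgfb1, Tgfb2, Tgfbr1, Tgfbr2, Smad3 and Cilp. The 250 bases before the transcription start of Cilp, which has the widest difference between the mutants in males, and of Tgfbr2, the core gene that differed between WT males and WT females, are shown because these are the genes with a promoter entry whose levels moved most. Capitals mark a match, on either strand, to the SMAD-binding letters GTCTAGAC or CAGAC, to the STAT-binding letters TTCNNNGAA, or to the TATA-box letters TATAA, the last chosen after the sequences were seen. The Cilp window lies at chr9:65264930-65265179 on the plus strand and the Tgfbr2 window at chr9:116175364-116175613 on the minus strand.
Cilp: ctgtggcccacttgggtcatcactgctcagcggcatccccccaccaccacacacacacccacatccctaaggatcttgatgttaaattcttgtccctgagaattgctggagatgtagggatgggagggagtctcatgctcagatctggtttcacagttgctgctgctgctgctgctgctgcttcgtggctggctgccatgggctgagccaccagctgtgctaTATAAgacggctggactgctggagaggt
Tgfbr2: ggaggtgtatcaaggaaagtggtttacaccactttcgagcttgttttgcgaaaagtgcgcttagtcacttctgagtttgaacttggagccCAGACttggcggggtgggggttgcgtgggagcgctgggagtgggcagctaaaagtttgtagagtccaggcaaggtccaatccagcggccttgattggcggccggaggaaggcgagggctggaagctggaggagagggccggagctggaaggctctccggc

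The Cilp window held TATAA, beginning 28 bases before the start, and no match to the other letters. The Tgfbr2 window held CAGAC, beginning 160 bases before the start, and no match to the others. Among all 32851 promoter windows of the same 250 bases, 42.2% held CAGAC, 22.8% TATAA, 7.02% TTCNNNGAA and 0.167% GTCTAGAC, so a CAGAC match is common. CAGAC is contained in no other letters searched here. Such a match is a description of the letters and not a binding site.

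Libraries held between 20982647 and 41345247 gene counts (median 34577593), and the lowest count of any member in any library was 162, for Tgfb2. All 10 members passed the filter on low counts in every comparison. Adipocyte markers (10 of 10 genes, Adipoq and Plin1 among them) summed to between 8111 and 28613 CPM (the gene's count scaled by the library's total of gene counts) in each library. Several male libraries stood apart: 8 epididymis markers (Adam7, Crisp1, Lcn5 and others) summed to 1.30, 12911, 3149 and 1212 CPM in WT male replicates 1 to 4, to 363, 0.502, 0.810 and 954 CPM in Y665F males, and to 12.6, 2.03, 1606 and 166 CPM in Y665H males, against at most 2.16 CPM in any female library. Y665F female replicate 3 had the highest sum of smooth muscle and pericyte markers, 10857 CPM against at most 5737 CPM elsewhere. B cell markers were higher in Y665F than in WT in both sexes without overlap, and macrophage and T and NK cell markers were so in females. In bulk tissue, fewer cells of a type and less RNA per cell cannot be told apart.

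Per kilobase of exon, Pmepa1 was the most abundant of the 10 transcripts, with a median over the 24 libraries of 34.0 CPM per kb, followed by Tgfbr2 at 30.6. Cilp (15.2), Tgfb3 (14.3), Tgfb1 (12.2), Smad3 (8.86), Smad7 (8.41) and Tgfbr1 (6.77) followed on the same scale, and Skil (4.07) and Tgfb2 (2.71) were lowest. The gap between Pmepa1 and Tgfbr2 was small beside their spread over libraries, 4.45 times from the lowest to the highest library for Pmepa1 and 4.07 times for Tgfbr2. Cilp, Tgfb3 and Tgfb1 likewise lay within each other's ranges. Smad3 was the steadiest, with its highest library 1.84 times its lowest.

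**Figure D1:**
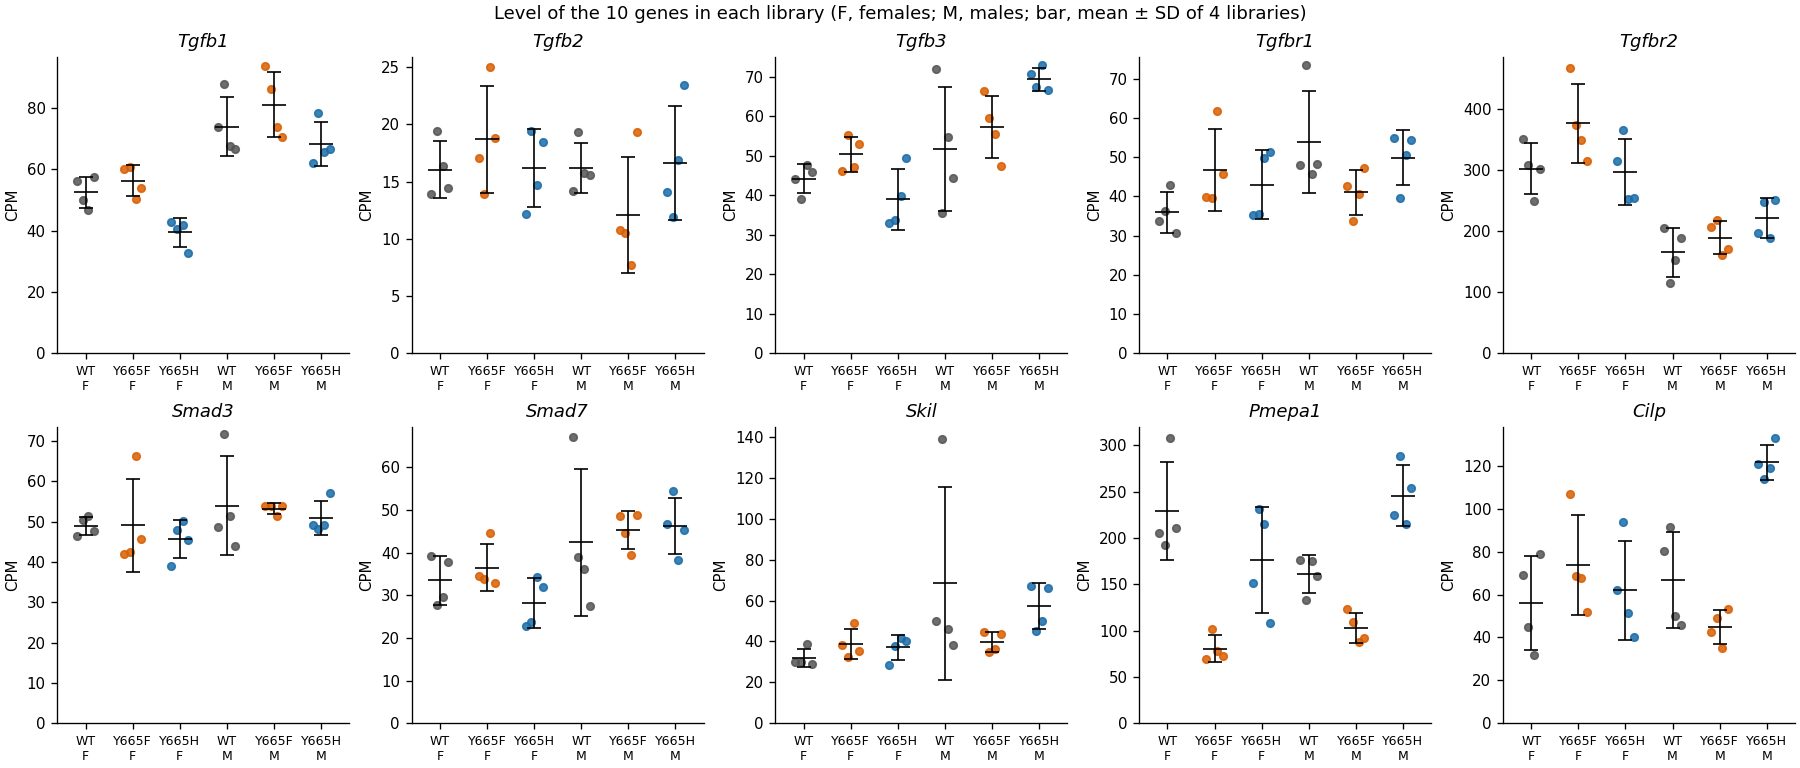
Level of the 10 genes in CPM (vertical axis, a linear scale) in each of the 24 libraries, with the 3 genotypes of females (F) and males (M) side by side; points are libraries and bars the mean ± SD of 4 libraries. Pmepa1 is lowest in both Y665F groups, Cilp is highest in Y665H males, Tgfbr2 is higher in females than in males, and the high point of Skil at 139 CPM is WT male replicate 2.

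Of the ligands, Tgfb1, the main isoform in most tissues, was lowest in Y665H females. It stood at 42.8, 40.6, 41.9 and 32.6 CPM in Y665H females, against 56.1, 50.0, 46.8 and 57.4 CPM in WT females and 60.2, 60.7, 50.3 and 53.9 CPM in Y665F females. Every Y665H female library lay below every library of the other female groups. Over all genes, 6.81% were lower without overlap in Y665H than in WT females and 21.5% were so against Y665F females. The fitted log2 difference of Y665H against WT females was -0.39 (SE 0.12), which edgeR's quasi-likelihood test did not call (adjusted p 0.0930, over 15469 genes) and DESeq2 did (adjusted p 0.0275). Against Y665F females it was -0.36 (SE 0.13, edgeR adjusted p 0.0831). This second value reached an edgeR adjusted p of 0.0415 without Y665F female replicate 3 and of 0.0125 when libraries were scaled by their totals, where the median of all genes moved from -0.03 to -0.18. Macrophage markers (435 to 669.5 against 862 to 1279 CPM) and B cell markers (5.53 to 10.5 against 22.2 to 31.5 CPM) were lower in Y665H than in Y665F females without overlap. Adipocyte markers were higher there without overlap. All of these lists overlapped between Y665H and WT females, and their part in the Tgfb1 values was not tested.

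In males, Tgfb1 ranged from 66.5 to 87.7 CPM in WT, from 70.7 to 93.6 CPM in Y665F and from 62.0 to 78.4 CPM in Y665H libraries, and all 3 ranges overlapped. The log2 differences were 0.19 (SE 0.14) for Y665F against WT and -0.10 (SE 0.14) for Y665H against WT, with edgeR adjusted p of 0.490 and 0.712. The effect of Y665H on Tgfb1 differed between males and females by 0.29 (SE 0.19) on the log2 scale, an interaction that was not called (edgeR adjusted p 0.408).

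Tgfb2 was the scarcest ligand and ranged from 7.72 CPM in Y665F male replicate 3 to 25.0 CPM in Y665F female replicate 3. Group means lay between 12.1 ± 5.05 CPM in Y665F males and 18.7 ± 4.66 CPM in Y665F females (SD, n = 4), and the groups overlapped in all comparisons. Tgfb3 was 70.6, 67.2, 72.9 and 66.7 CPM in Y665H males, 66.4, 59.7, 55.4 and 47.5 CPM in Y665F males, and 71.9, 35.4, 54.8 and 44.5 CPM in WT males. The Y665H male libraries were close together and all lay above the Y665F males, while WT males spread across the whole range. The log2 difference of Tgfb3 was 0.22 (SE 0.12) for Y665H against Y665F males and 0.43 (SE 0.22) for Y665H against WT males, neither called by edgeR (adjusted p 0.353 and 0.402). With male libraries above 500 CPM of epididymis markers left out, which leaves WT male replicate 1 as the lone WT male, the last value was -0.12.

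Tgfb3 in females was 32.9, 33.7, 39.8 and 49.4 CPM in Y665H libraries, against 39.2 to 47.5 CPM in WT and 46.0 to 55.3 CPM in Y665F libraries, with all groups overlapping. The Y665H effect on Tgfb3 was higher in males than in females by 0.59 (SE 0.27) on the log2 scale. This interaction was not called (edgeR adjusted p 0.262) and became so without WT male replicate 1 (0.87, edgeR adjusted p 0.0226), and it was 0.03 without the male libraries high in epididymis markers.

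Among the receptors, Tgfbr1 differed little between genotypes. Its group means ran from 35.9 ± 5.19 CPM in WT females to 53.9 ± 13.1 CPM in WT males (SD, n = 4). Y665F females stood at 39.9, 39.6, 61.8 and 45.6 CPM and Y665F males at 42.7, 33.6, 40.6 and 47.3 CPM, against 33.7, 36.3, 42.9 and 30.8 CPM in WT females and 48.1, 73.4, 45.8 and 48.2 CPM in WT males. Y665F was thus above WT on average in females and below it in males, with overlapping libraries in both sexes. The log2 difference was 0.24 (SE 0.15) in females and -0.35 (SE 0.16) in males, and the interaction of -0.59 (SE 0.24) was not called by edgeR (adjusted p 0.183).

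Tgfbr2, the ligand-binding receptor, was the second most abundant member and varied with sex more than with genotype. In females it was 351, 309, 249.7 and 302 CPM in WT, 468, 374, 350.4 and 316 CPM in Y665F and 315, 367, 253 and 255 CPM in Y665H libraries. In males it was 206, 115, 154 and 188 CPM in WT, 207, 219, 161 and 172 CPM in Y665F and 198, 247, 188 and 251 CPM in Y665H libraries. Within every genotype, each male library was below each female library, beside 7.01% of all genes in WT (mutants not computed). No difference between genotypes was called: Y665F against WT was 0.19 (SE 0.15) in females and 0.24 (SE 0.21) in males, and Y665H against WT was -0.01 (SE 0.15) in females and 0.43 (SE 0.22) in males on the log2 scale, with edgeR adjusted p from 0.402 to 0.982.

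The SMAD genes differed little between genotypes. Smad3, the effector SMAD, had group means between 45.6 ± 4.77 CPM in Y665H females and 53.9 ± 12.3 CPM in WT males (SD, n = 4). Smad7, the inhibitory SMAD, had its lowest mean in Y665H females, 28.2 ± 5.75 CPM, and its highest in Y665H males, 46.2 ± 6.57 CPM (SD, n = 4). Its spread was widest in WT males, at 67.2, 39.1, 36.1 and 27.4 CPM. The libraries of both genes overlapped in every comparison between genotypes, and no log2 difference of either exceeded 0.24 in size.

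Skil, a transcriptional corepressor induced by the pathway, was higher in Y665H than in Y665F males. It stood at 67.3, 45.1, 50.2 and 66.4 CPM in Y665H males and at 44.6, 34.8, 36.5 and 43.4 CPM in Y665F males. The lowest Y665H library, at 45.1 CPM, lay just above the highest Y665F library, at 44.6 CPM. The log2 difference was 0.47 (SE 0.13), not called by edgeR (adjusted p 0.115) and called by DESeq2 (adjusted p 0.0126). WT males stood at 50.0, 139, 46.2 and 38.2 CPM, where replicate 2, the library with the highest sum of epididymis markers, was far above the rest. With that library the log2 difference of Y665F against WT males was -0.73 (SE 0.39, edgeR adjusted p 0.359), and without it -0.12. In females Skil ranged from 28.4 to 49.0 CPM, with overlapping genotypes.

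Taking the 8 core genes as a group, edgeR called 0 of 8 in each of the 6 comparisons between genotypes. The share of all tested genes called was 3.33% for Y665F against WT females, 0% for Y665F against WT males, 3.34% for Y665H against WT females, 0% for Y665H against WT males, 17.4% for Y665H against Y665F females and 1.03% for Y665H against Y665F males. At an unadjusted edgeR p under 0.05 there were 0, 0, 1 (Tgfb1), 0, 1 (Tgfb1) and 1 (Skil) of the core genes in the same order, and DESeq2 called 0, 0, 1, 0, 0 and 1. Over all genes the unadjusted counts were 4107, 2772, 3679, 1874, 5181 and 2879, and DESeq2 called 2030, 1036, 1782, 64, 3897 and 1078. These are out of 15642, 16240, 15469, 16406, 15493 and 15986 genes tested. The median log2 difference of the core genes ran from -0.13 for Y665H against Y665F females to 0.20 for Y665H against Y665F males, beside -0.03 and -0.02 over all genes tested. In the interaction tests, which compare the effect of a mutation in males with that in females, 0 of 8 core genes were called for either mutation, beside 0% of all genes for Y665F and 0.0119% for Y665H. 1 core gene had an unadjusted edgeR p under 0.05 in each (Tgfbr1 for Y665F and Tgfb3 for Y665H). Over all genes 3645 of 16732 had such a p for Y665F and 3079 of 16827 for Y665H.

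**Figure D2:**
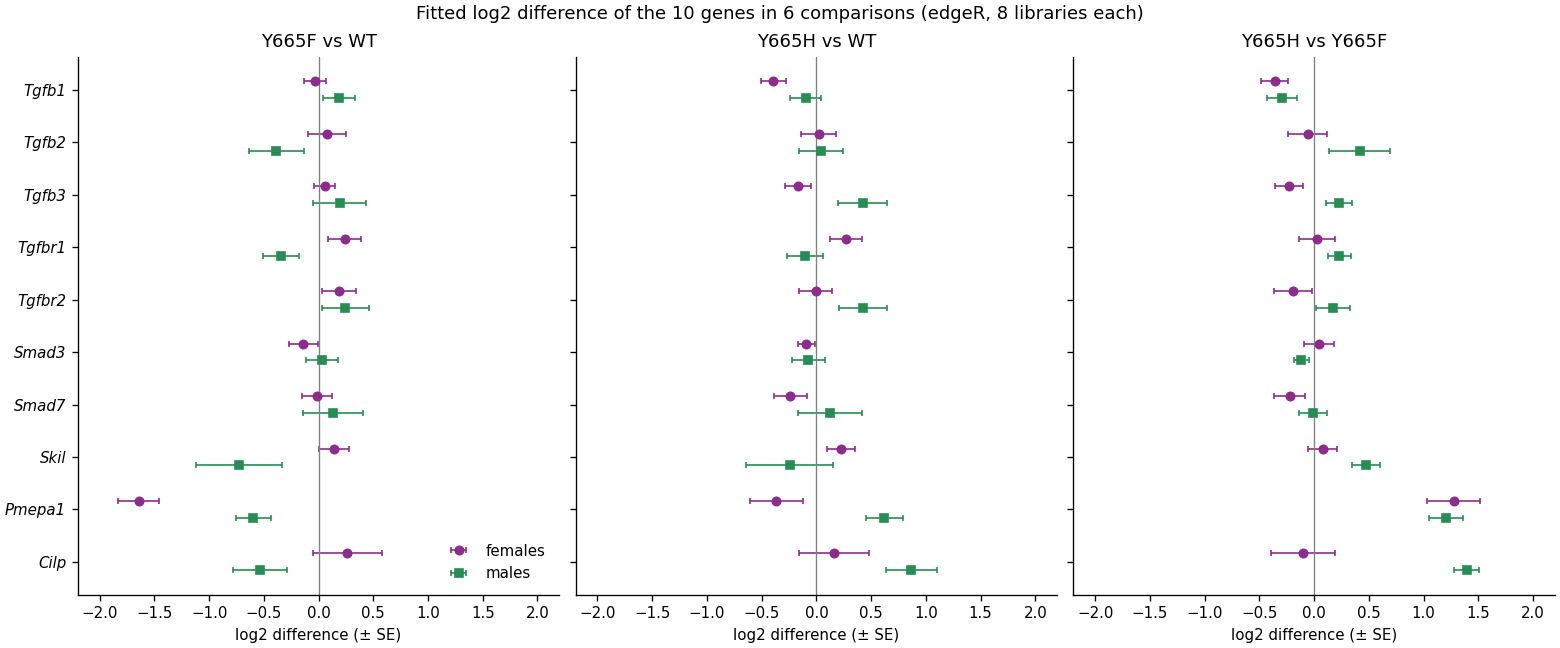
Fitted log2 difference of the 10 genes (horizontal axis, ± SE) in the 6 comparisons between genotypes within a sex, each from edgeR on 8 libraries. The core genes lie between -0.73 and 0.47, while Pmepa1 reaches -1.64 for Y665F against WT females and Cilp reaches 1.39 for Y665H against Y665F males.

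Pmepa1 (chr2:173224458-173276533, minus strand), the feedback inhibitor that binds activated SMADs, was lowest in both groups carrying Y665F. In females it stood at 69.1, 101, 78.2 and 72.8 CPM in Y665F libraries, against 205, 193, 308 and 211 CPM in WT and 151, 231, 215 and 108 CPM in Y665H libraries. Y665F lay below the other female groups without overlap, although Y665H female replicate 4 at 108 CPM came close to the highest Y665F library at 101 CPM. These female values chose the gene, so the log2 differences of -1.64 (SE 0.19) for Y665F against WT, -0.37 (SE 0.24) for Y665H against WT and 1.28 (SE 0.24) for Y665H against Y665F are given with no test.

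The male libraries were not used in choosing Pmepa1. There it stood at 123, 109, 87.9 and 92.4 CPM in Y665F, 177, 133, 175 and 159 CPM in WT and 225, 288, 215 and 253 CPM in Y665H libraries. The 3 male groups did not overlap: Y665F was lowest, WT lay between, and Y665H was highest. Pmepa1 was higher in Y665H than in Y665F males, with a log2 difference of 1.21 (SE 0.15) that edgeR called (adjusted p 0.0180), or 2.38 times by the group means. The call was lost without Y665F male replicate 1, 2 or 3 or Y665H male replicate 1, with edgeR adjusted p of 0.0620, 0.0617, 0.0897 and 0.0592 and log2 differences from 1.15 to 1.31. Against WT males, neither Y665F at -0.59 (SE 0.16, edgeR adjusted p 0.195) nor Y665H at 0.62 (SE 0.17, edgeR adjusted p 0.402) was called, and DESeq2 called the Y665F difference (adjusted p 0.0164).

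Pmepa1 was thus lower in Y665F than in WT libraries in both sexes, with a mean 2.85 times lower in females and 1.56 times lower in males. The Y665H libraries lay below WT on average in females, 176 ± 57.2 against 229 ± 52.9 CPM, and above WT in males, 245 ± 32.7 against 161 ± 20.0 CPM (SD, n = 4). The difference between the sexes was 1.05 (SE 0.26) for Y665F and 0.99 (SE 0.31) for Y665H on the log2 scale, given with no test because the female libraries are part of it. Among all genes, 2.96% were lower in Y665F than in WT females without overlap and 3.26% were so in males, while 6.62% were higher without overlap in Y665H than in Y665F females. B cell markers summed to between 22.2 and 31.5 CPM in Y665F females, against 7.13 to 13.0 CPM in WT females. T and NK cell markers summed to 22.1 to 33.1 against 6.42 to 8.50 CPM there, and macrophage markers to 862 to 1279 against 574 to 776 CPM. The part of such cells in the Pmepa1 values was not tested. Adipocyte markers summed to 13499 to 21884 CPM in Y665F females and 19629 to 26138 CPM in WT females, and all 10 of these markers had log2 differences below 0 with a median of -0.41, none of them called. In males 9 of 10 were above 0, with a median of 0.21 and none called, while B cell markers summed to between 17.5 and 36.9 CPM in Y665F and between 5.47 and 14.7 CPM in WT males. Entries that name no gene took 32.5% to 35.9% of the total in Y665F females and 27.9% to 30.3% in WT females, without overlap, and the part of this measure was not tested either. Leaving out male libraries above 500 CPM of epididymis markers gave 1.19 for Y665H against Y665F males (edgeR adjusted p 0.0446). For Y665F against WT males it gave -0.72, with WT male replicate 1 as the lone WT male.

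Cilp (chr9:65265180-65280605, plus strand), the matrix protein gene, was highest in Y665H males. It stood at 121, 114, 119 and 133 CPM in Y665H males, at 42.4, 48.9, 35.1 and 53.0 CPM in Y665F males and at 80.2, 91.3, 50.1 and 46.0 CPM in WT males. Every Y665H male library was above every other male library, while Y665F and WT males overlapped. The values for Y665H against Y665F males, a log2 difference of 1.39 (SE 0.12) and a ratio of means of 2.71, chose the gene and carry no test. The log2 difference was 0.87 (SE 0.23) for Y665H against WT males and -0.54 (SE 0.25) for Y665F against WT males, also given with no test because they share those libraries.

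In females, which were not used in choosing Cilp, the gene showed no such order. It stood at 62.1, 93.8, 51.5 and 40.4 CPM in Y665H, 107, 68.5, 67.5 and 51.8 CPM in Y665F and 69.2, 44.7, 31.6 and 78.8 CPM in WT females, and all 3 groups overlapped. The log2 differences were 0.26 (SE 0.31) for Y665F against WT, 0.16 (SE 0.32) for Y665H against WT and -0.10 (SE 0.30) for Y665H against Y665F, with edgeR adjusted p of 0.610, 0.787 and 0.831.

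In the comparison of Y665H with Y665F males, 4 of the 10 members were higher without overlap: Tgfb3, Skil, Pmepa1 and Cilp, of which Cilp was chosen on it. Over all genes, 6.29% were higher without overlap there. The total behind CPM includes the ribosomal RNA gene Rn45s, at 9.06% to 15.0% in Y665F and 4.02% to 7.53% in Y665H males, without overlap. Margins were narrow for Tgfb3 (66.7 against 66.4 CPM) and Skil (45.1 against 44.6 CPM), and the part of Rn45s was not tested. Against WT males, Pmepa1 and Cilp were higher without overlap in Y665H, beside 2.43% of all genes. Cilp was chosen in part on these same Y665H male libraries. T and NK cell markers summed to between 4.63 and 20.9 CPM in Y665H males and between 27.9 and 57.5 CPM in Y665F males. The fibroblast and progenitor markers, from cells that make most of the matrix in fat, summed to 2458 to 3066 CPM in Y665H and 1995 to 2624 CPM in Y665F males, with 9 of 10 above 0 and a median log2 difference of 0.49 (1 called). The part of these cells in the Cilp and Pmepa1 values was not tested.

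**Figure D3:**
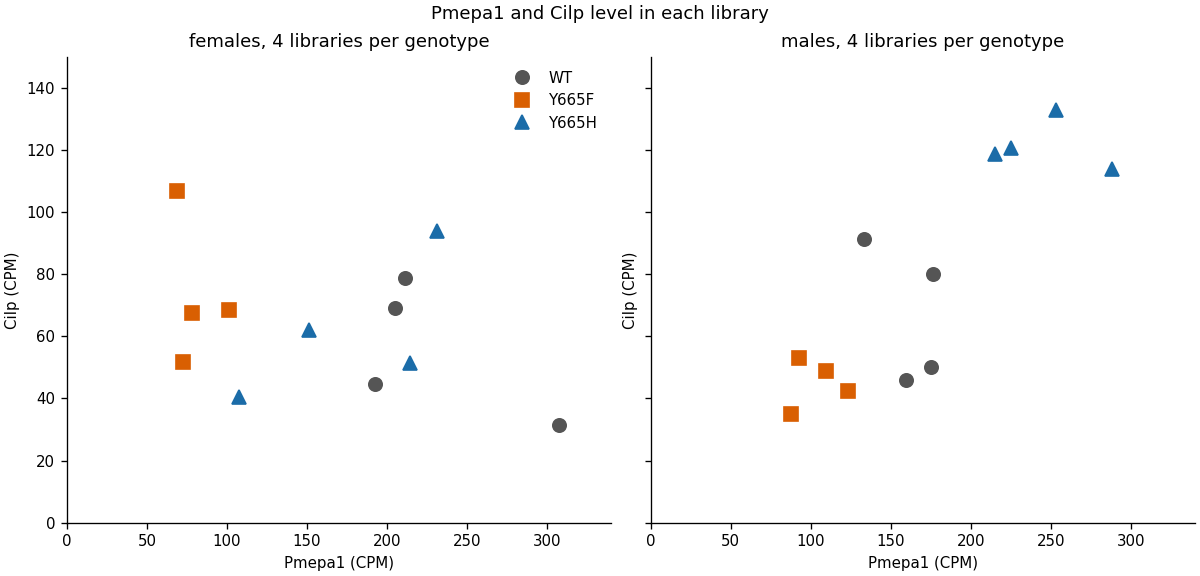
Pmepa1 level (horizontal axis, CPM) against Cilp level (vertical axis, CPM) in each library, for females on the left and males on the right, with colours for the 3 genotypes. In males the 4 Y665H libraries lie apart at the upper right and the Y665F libraries at the lower left. In females Y665F is set apart on the Pmepa1 axis and the genotypes overlap on the Cilp axis.

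Across the 24 libraries, the rank correlation between Pmepa1 and Cilp was 0.33. It was -0.21 over the 12 female and 0.80 over the 12 male libraries, which share genotype groups and are not independent points. By the rule of the highest rank correlation over the 24 libraries among the 14837 genes whose mean level reached 1 CPM, the genes most like Pmepa1 were Tusc5 (0.82), Acp5 (0.81), Gkn3 (0.77), Slc22a3 (0.77) and Ell2 (0.77). Within females their values were 0.74 to 0.92 and within males 0.72 to 0.84, from the same libraries that chose them. The genes most like Cilp were Ddb1 (0.71), Aff4 (0.70), Pdpn (0.70), Ikbip (0.69) and Stat3 (0.68), with values of 0.29 to 0.73 in females and 0.64 to 0.94 in males. Among the other members, the one most like Cilp was Skil (0.40 over all libraries, -0.25 in females and 0.80 in males). The members other than Cilp had rank correlations with Pmepa1 between -0.12 and 0.21 over the 24 libraries.

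A wider list of 82 pathway genes covered ligand latency and activation, other receptors and SMADs, other inhibitors, activins and BMPs with their antagonists, and response genes of TGF-beta and BMP. It was drawn up with earlier results of these data known, so its counts are a description. In Y665F females edgeR called 3 of 80 tested genes, all lower than in WT. Gdf10, a ligand of the family that restrains adipogenesis, fell from 32.1 ± 5.27 to 14.0 ± 4.94 CPM (SD, n = 4; log2 difference -1.34, SE 0.24, edgeR adjusted p 0.0280). Ltbp2, a latent TGF-beta binding protein homologue of the matrix, fell from 47.3 ± 4.70 to 26.8 ± 9.09 CPM (-0.95, SE 0.21, edgeR adjusted p 0.0493, and 0.0523 with no filter on low counts). The 3 called genes are 3.75% of those tested, beside 3.33% of all genes.

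In Y665F males none of the 81 tested genes was called, beside 0% of all genes. Ltbp2 was lower there without overlap, at 44.3 to 62.8 CPM against 67.0 to 122 CPM in WT males (edgeR adjusted p 0.185). Over all genes, 3.26% were lower without overlap in that comparison. Gdf10 overlapped, at 34.1 to 67.8 CPM in Y665F and 35.5 to 88.4 CPM in WT males. The interaction was called for none of the wider genes for either mutation. Leaving out a library decided the count in females: it was 0 without WT female replicate 1 or 4 or Y665F female replicate 2, 1 without WT female replicate 2 or Y665F female replicate 1, and 6 without Y665F female replicate 3.

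In Y665H females edgeR called 3 of 81 tested genes, all lower than in WT (3.70%, beside 3.34% of all genes). Fstl3, a secreted antagonist of activins, fell from 5.17 ± 1.82 to 1.76 ± 0.515 CPM (log2 difference -1.53, SE 0.31, edgeR adjusted p 0.0389). Lox, the collagen crosslinking enzyme, fell from 63.8 ± 5.72 to 44.4 ± 7.37 CPM (-0.51, SE 0.11, edgeR adjusted p 0.0449). Nedd4l, a ubiquitin ligase that limits SMAD activity, fell from 68.7 ± 1.96 to 53.8 ± 5.05 CPM (-0.34, SE 0.07, edgeR adjusted p 0.0413; SD, n = 4 throughout). Of the 26 TGF-beta response genes, 24 had log2 differences below 0, with a median of -0.35 beside 0.00 for all genes tested, though Lox was the only one called. Smooth muscle and pericyte markers were below 0 for 7 of 8 in the same comparison (median -0.28, 1 called higher and 0 lower) and macrophage markers for 7 of 8 (median -0.30, 0 called). Their part was not tested, and the response list itself holds the smooth muscle genes Acta2 and Tagln. The calls of Lox and Nedd4l were lost in the fit of all 24 libraries (edgeR adjusted p 0.218 and 0.484), with libraries scaled by their totals (0.0512 and 0.0510) and with no filter on low counts (0.0538 and 0.0560). The count was 0 without WT female replicate 1, 2 or 4 or Y665H female replicate 1, 1 without Y665H female replicate 3 or 4, and 6 without WT female replicate 3.

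In Y665H males the response genes lay the other way on average, with 16 of 26 above 0 and a median of 0.21 beside -0.05 for all genes, and none called. The Y665H effect was higher in males than in females for 23 of the 26 response genes, with a median difference of 0.55 beside -0.09 for all genes tested and none called. Lox, lower in Y665H females, was higher in Y665H than in WT males without overlap, at 83.1 to 118 against 41.1 to 82.0 CPM. Over all genes, 2.43% were higher without overlap there. The interaction of Lox was not called (edgeR adjusted p 0.0848). Fstl3 and Nedd4l overlapped between these male groups. Several marker lists lay mostly above 0 as well. In Y665H against WT males these were fibroblast and progenitor (9 of 10, median 0.53) and adipocyte markers (9 of 10, median 0.46). Macrophage (8 of 8, median 0.38), B cell (7 of 7, 0.57) and endothelial markers (7 of 8, 0.36) did so too. Epithelium (8 of 8, median -1.99) and epididymis markers (6 of 6 tested, -5.89) were among those below 0. In the interaction, fibroblast and progenitor (9 of 10, median 0.46) and macrophage markers (8 of 8, 0.61) were above 0. So were B cell (7 of 7, 0.75) and endothelial markers (7 of 8, 0.46), while epithelium markers were below 0 for 8 of 8. No marker of these lists was called in these comparisons. Epididymis markers summed to between 1.30 and 12911 CPM in the WT male libraries and between 2.03 and 1606 CPM in the Y665H male libraries. The part of the cells of any of these lists in the values was not tested.

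**Figure D4:**
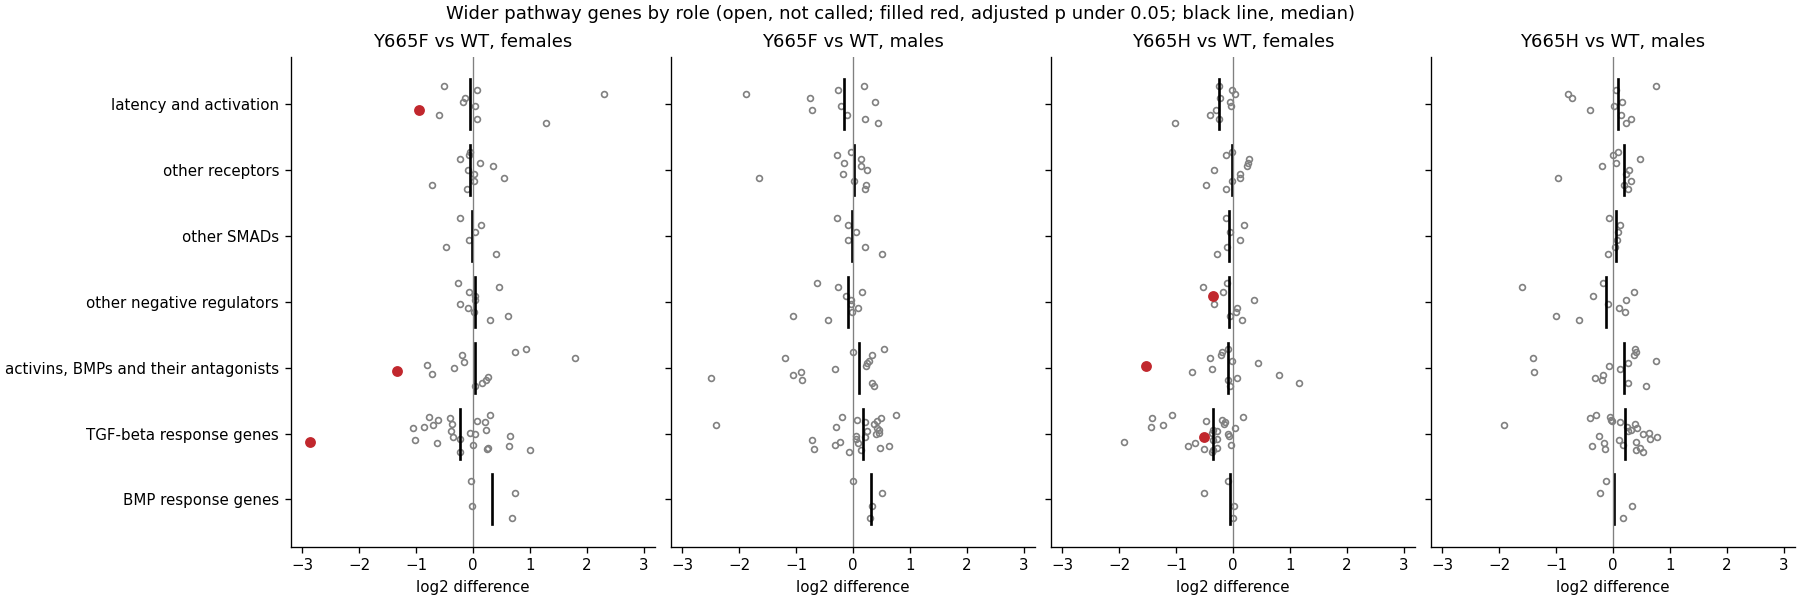
Fitted log2 difference (horizontal axis) of the wider pathway genes, grouped by role (vertical axis), for each mutation against WT in females and in males; open points were not called, red points had an edgeR adjusted p under 0.05, and black lines are medians. Y665F females have 3 called genes and Y665H females 3, all to the left of 0, and the male panels have none.

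Between the mutants, 12 of 79 wider genes tested differed in females (15.2%, beside 17.4% of all genes), 5 higher and 7 lower in Y665H. Higher were Fst, the activin antagonist follistatin, at 16.2 ± 2.01 against 7.55 ± 2.15 CPM (log2 difference 1.24, SE 0.21, edgeR adjusted p 0.00736), Gdf10 at 24.6 ± 1.42 against 14.0 ± 4.94 CPM, Adam12, Ppm1a and Cthrc1, the last at under 1 CPM. The 6 lower genes with the smallest p were Thbs1, Bmp4, Tgfbi, Fstl3, Nedd4l and Cdkn1a. For Bmp4, Y665H females at 9.32 to 13.0 CPM overlapped WT females at 11.4 to 14.3 CPM, and Y665F females at 19.7 to 34.4 CPM lay above both. Tgfbi had the same order, with WT females at 69.4 to 82.8 CPM. Over all genes, 19.9% were higher without overlap in Y665F than in WT females. The calls of Ppm1a, Nedd4l and Cdkn1a were lost in the fit of all 24 libraries (edgeR adjusted p 0.230, 0.284 and 0.0704), and those of Ppm1a and Cthrc1 with libraries scaled by their totals (0.133 and 0.0666). Thbs1, which encodes thrombospondin 1, an activator of latent TGF-beta, stood at 119.5, 182, 113 and 104 CPM in Y665H and 1345, 484, 681 and 331 CPM in Y665F females, without overlap (log2 difference -2.31, SE 0.42, edgeR adjusted p 0.00891). WT females, at 580.0, 121, 132 and 235 CPM, overlapped both. Tgfbi, a response gene encoding a matrix protein also made by macrophages, was 62.0 ± 7.57 in Y665H against 100.8 ± 14.5 CPM in Y665F females (-0.55, SE 0.11, edgeR adjusted p 0.0127; SD, n = 4). Macrophage markers summed to between 435 and 669.5 CPM in Y665H and between 862 and 1279 CPM in Y665F females, without overlap. B cell markers were lower in Y665H females as well (5.53 to 10.5 against 22.2 to 31.5 CPM, 7 of 7 called), and adipocyte markers were higher (24479 to 28613 against 13499 to 21884 CPM, 1 of 10 called), both without overlap. The part of these cells in the differences was not tested. The count fell to 5 without Y665H female replicate 1 and to 6 without Y665H female replicate 3.

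In males the same comparison called 1 of 81, Postn, which encodes the matrix protein periostin, higher in Y665H (1.23%, beside 1.03% of all genes). Postn stood at 102, 118, 126 and 129 CPM in Y665H and 84.8, 63.6, 52.5 and 63.1 CPM in Y665F males, without overlap (log2 difference 0.80, SE 0.14, edgeR adjusted p 0.0440). WT males, at 101 to 120 CPM, overlapped Y665H males and lay above every Y665F male library. Over all genes, 3.26% were lower without overlap in Y665F than in WT males. The call was lost in each of the 8 fits that left out a library, with edgeR adjusted p up to 0.136, and with no filter on low counts (0.0577).

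**Figure D5:**
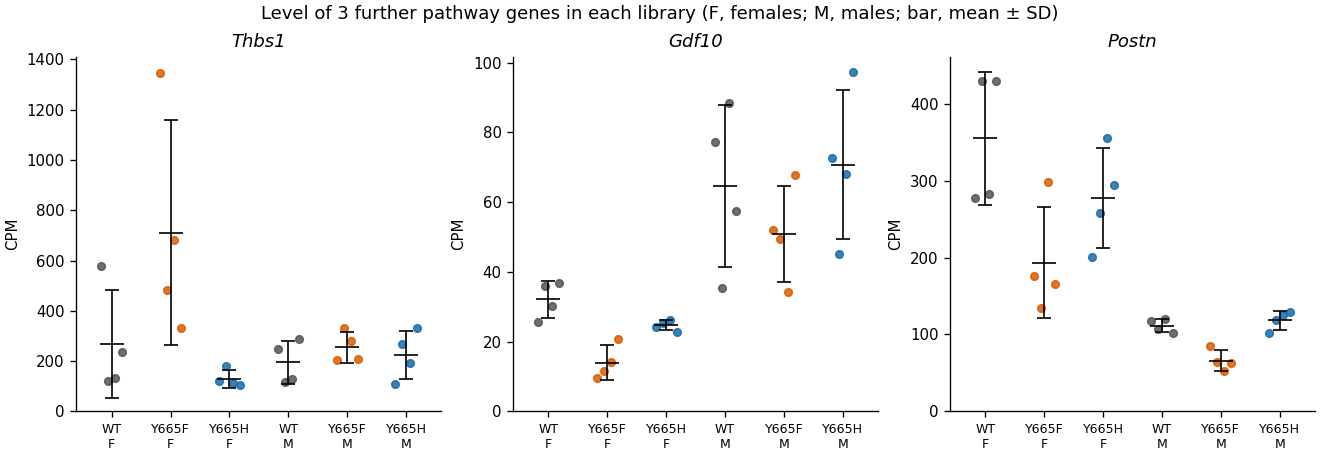
Level in CPM (vertical axis, a linear scale) of Thbs1, Gdf10 and Postn in each library of the 6 groups, with points for libraries and bars for the mean ± SD of 4 libraries; the 3 genes were chosen after their values were seen. Thbs1 has its highest mean in Y665F females, Gdf10 averages 32.1 CPM in WT and 14.0 CPM in Y665F females, and Postn averages 355 CPM in WT females and 112 CPM in WT males.

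Between WT males and WT females, 1 of the 8 core genes was called, Tgfbr2, lower in males (log2 difference -1.02, SE 0.20, edgeR adjusted p 0.0207). Mean levels of Tgfbr2 were 166 ± 40.2 CPM in these males and 303 ± 41.4 CPM in these females (SD, n = 4). Of all genes tested, 13.1% were called and 5.95% were called lower. The call was lost without WT male replicate 3 (edgeR adjusted p 0.0594) or WT female replicate 1, 2, 3 or 4 (0.0731, 0.0682, 0.0516 and 0.0730), with values from -0.96 to -1.11. With WT male replicate 1, low in epididymis markers, as the lone male the difference was -0.63 (edgeR adjusted p 0.229).

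Tgfb1 was higher in males than in females without overlap in all 3 genotypes, beside 18.2% of all genes in WT (mutants not computed). By the means Tgfb1 in males was 1.41 times that in females in WT, 1.44 times in Y665F and 1.73 times in Y665H. In WT the log2 difference was 0.35 (SE 0.13, edgeR adjusted p 0.0968, not called), and it was called when libraries were scaled by their totals (0.52, edgeR adjusted p 0.0329), where the median of all genes moved from 0.04 to 0.22. Tgfbr1 was higher in WT males without overlap as well (0.44, SE 0.18, edgeR adjusted p 0.133), and Pmepa1 was lower, at 161 ± 20.0 against 229 ± 52.9 CPM. In all, 4 of the 10 members did not overlap between WT males and females, beside 25.2% of all genes, and 1 of the 4, Pmepa1, was chosen in part on its WT female values. The fibroblast and progenitor markers summed to 1496 to 2564 CPM in WT males and 3148 to 3414 CPM in WT females, with 10 of 10 below 0 (median -0.96, 6 called), and their part in the Tgfbr2 difference was not tested.

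Among the wider genes, 16 of 81 were called between WT males and WT females, 7 higher and 9 lower in males (19.8%, beside 13.1% of all genes). Of the 26 TGF-beta response genes, 8 were called lower, beside 5.95% of all genes, and 1 higher, with a median of -0.56 over the 26 beside 0.04 for all genes tested. Postn, at 112 ± 8.86 CPM in WT males, stood at 355 ± 86.2 CPM in WT females (log2 difference -1.82, SE 0.20, edgeR adjusted p 0.00358), and Col3a1, a fibrillar collagen gene, was 2031 ± 573 against 4722 ± 1353 CPM (-1.36, SE 0.31, edgeR adjusted p 0.0300). Tagln, a smooth muscle gene, was 178 ± 68.7 against 621 ± 242 CPM, Itga11 10.2 ± 4.86 against 23.3 ± 2.76 CPM and Adam12 35.7 ± 12.3 against 78.2 ± 22.7 CPM, while Id4, a BMP response gene, was 3.58 ± 0.583 against 8.07 ± 3.29 CPM (SD, n = 4). Tagln and Id4 were not called in the fit of all 24 libraries (edgeR adjusted p 0.0684 and 0.0635). Of the 8 fits that left out a library, 6 each lost the calls of Col3a1, Itga11 and Adam12. The call of Id4 was lost in 5, that of Tagln in 3 and that of Postn in 0. Smooth muscle and pericyte markers summed to 1077 to 1853 CPM in WT males and 1971 to 3773 CPM in WT females, and skeletal muscle markers were lower in WT males for 8 of 8 (7 called). Fibroblast and progenitor markers were lower for 10 of 10 (median -0.96, 6 called) and adipocyte markers for 10 of 10 (median -0.72, 0 called). Epithelium markers were higher for 8 of 8 (3 called), and epididymis markers summed to 1.30 to 12911 CPM in WT males and at most 1.01 CPM in WT females. Their part was not tested.

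Among the genes higher in WT males were Grem1, a BMP antagonist, at 2.17 ± 1.03 against 0.0133 ± 0.0153 CPM, Bmpr1b, a BMP receptor, at 30.8 ± 18.0 against 1.24 ± 0.437 CPM, Junb, Gdf15, Inhba and Ltbp2. Of the 8 fits that left out a library, 4 each lost the calls of Junb and Inhba. The calls of Gdf15 and Ltbp2 were lost in 5 each, and those of Grem1 and Bmpr1b in 0. Bmpr1b stood at 5.18 CPM in WT male replicate 1, the library low in epididymis markers, and at 37.1, 47.1 and 33.7 CPM in the other WT males. Its log2 difference was 4.46 (SE 0.64, edgeR adjusted p 0.00827) with all WT males and 1.98 with replicate 1 alone (edgeR adjusted p 0.0791). With replicate 1 as the lone WT male 1 wider gene was called, and 28 were called without it. The count was 6 without WT male replicate 3, and 5, 3, 4 and 3 without WT female replicates 1 to 4.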

How the data were processed

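Gene counts of 24 adipose total RNA libraries (6 groups of 4) were used as deposited by the authors, who, per the submitters' processing notes, used FastQC 0.11.9, Trimmomatic 0.36, STAR, SAMtools 1.9, Picard 2.9.2 and HTSeq 0.9.1 with mm10. The annotation and the strand setting of the counting are not given in the sources used here. Entries that name no gene (24.8% to 39.7% of a library's total) were left out, which leaves 20982647 to 41345247 gene counts per library. The ribosomal RNA gene Rn45s took 3.27% to 15.0% of these. No 2 libraries of a group agreed within sampling noise.

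Levels are CPM, counts scaled by the library's total of gene counts, with no further scaling, and per kilobase they are divided by the exon length of GENCODE M21. The main test was edgeR 4.0.16 (quasi-likelihood F test, TMM scaling, filterByExpr) in R 4.3.3, fitted on the 8 libraries of a comparison or the 16 of an interaction, with Benjamini-Hochberg adjustment over all genes tested. A gene is called at an adjusted p under 0.05. Fitted log2 differences use TMM scaling and can differ from ratios of CPM. Alternatives were DESeq2 1.42.0, other scalings, no filter, all 24 libraries, a replicate block, each library left out in turn and, added after the data were seen, only libraries with at most 500 CPM of epididymis markers. The fit was tested on simulated data.

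The members and all gene lists were chosen with earlier results of these data known. Named genes are the 10 members, up to 6 called wider genes per direction and comparison with the smallest p, and the 5 genes most correlated with Pmepa1 and with Cilp. The wider counts include 1 gene that is not reported here.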

Additional observations from a re-analysis of the deposited data

Results flagged for a closer look

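A library standing apart from the other 3 of its group was tested for in 116 sets of a gene and a group, by the gap to its nearest neighbour over the range of the group. Chance marks about 1 in 20 such sets. In WT males, replicate 2 was high for Tgfbr1 (73.4 CPM, the others 45.8 to 48.2 CPM), Skil (138.9 CPM, the others 38.2 to 50.0 CPM) and Inhba (13.3 CPM, the others 4.86 to 5.87 CPM), and it also had the highest sum of epididymis markers of all libraries, 12911 CPM. In Y665F females, replicate 3 was high for Smad3 (66.1 CPM, the others 41.9 to 45.7 CPM), Smad7 (44.6 CPM, the others 32.9 to 34.4 CPM) and Bmp4 (34.4 CPM, the others 19.7 to 21.4 CPM), and it had the highest sum of smooth muscle and pericyte markers, 10857 CPM. The part of these markers in the values was not tested.

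In WT females, replicate 3 was high for Pmepa1 (307.6 CPM, the others 193 to 211 CPM) and for Skil (38.8 CPM, the others 29.2 to 29.9 CPM). Fstl3 was high in Y665F female replicate 2 (6.18 CPM, the others 3.66 to 4.05 CPM). Smad3 was high in Y665H male replicate 4 (57.0 CPM, the others 48.0 to 49.1 CPM), and Y665F male replicate 3 was marked at 51.3 CPM because the other 3 lay between 53.8 and 53.9 CPM.

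For 2 core genes, every Y665F female library lay above the mean of WT females and every Y665F male library below the mean of WT males. For Tgfbr1 the difference between the sexes was -0.59 on the log2 scale (edgeR adjusted p 0.183), and for Skil it was -0.88 (edgeR adjusted p 0.258), so neither interaction was called. The Skil value rests on WT male replicate 2 at 138.9 CPM, and it was -0.28 without that library (edgeR adjusted p 0.454).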

How the results depend on the processing

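Every member had at least 162 counts in each library. DESeq2 called 12 wider genes for Y665F against WT females (3 in edgeR), 3 for Y665F against WT males (0), 10 for Y665H against WT females (3), 19 for Y665H against Y665F females (12), 8 for Y665H against Y665F males (1), 27 for WT males against WT females (16) and 3 for each interaction (0), and 1 core gene each for Y665H against WT females and Y665H against Y665F males. Over all genes DESeq2 called 2030 of 15642 for Y665F against WT females and 1036 of 16240 in males. It called 1782 of 15469 for Y665H against WT females and 3920 of 15865 for WT males against females. For Y665H against Y665F it called 3897 of 15493 in females and 1078 of 15986 in males. The interactions gave 1152 of 16732 for Y665F and 689 of 16827 for Y665H. One edgeR fit of all 24 libraries called 6, 4, 2, 29 and 1 wider genes for Y665F against WT females, Y665F against WT males, Y665H against Y665F males, WT males against females and the Y665H interaction, and 2 core genes for WT males against females. Over all genes that fit called 512, 2261, 400, 5987 and 201 in the same order. Scaling by library totals gave 1 wider gene for Y665H against WT females, 1 core gene (Tgfb1) for Y665H against Y665F females and 2 (Tgfb1, Tgfbr2) for WT males against females. With no filter on low counts the wider count was 1 for Y665H against WT females and 0 for Y665H against Y665F males. Restricting WT males to the library low in epididymis markers left 0 core and 1 wider gene for WT males against females, in a fit that assumes that the lone library varies like the females.

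Leaving out each library gave wider counts of 0 to 6 for Y665F and 0 to 6 for Y665H against WT females, 5 to 12 and 0 to 1 for Y665H against Y665F females and males, 3 to 28 for WT males against females, and 0 to 5 (5 without WT male replicate 1, 1 without WT male replicate 2) and 0 to 10 (10 without WT male replicate 1) for the Y665F and Y665H interactions. Core counts were 0 to 1 for Y665H against Y665F females, WT males against females and the Y665H interaction. No called value changed sign. Among the 10 members, 1355 of the single-gene values under an alternative kept their direction and side of the threshold, 91 moved, 24 lost a call and 10 gained one. By Pearson in place of rank correlation, the 5 genes named as most like Pmepa1 ranked between 1 and 9 and those named for Cilp between 2 and 10.

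Replicate numbers are shared between groups, but same-numbered libraries did not deviate together consistently: correlations ran from -0.46 to 0.77 (the highest for replicate 2 of Y665H and Y665F males), and in no comparison were all pairs over 0.1. With the replicate block the wider counts were 6 for Y665F against WT females, 0 for Y665H against WT females, 0 for Y665H against Y665F males and 6 for WT males against females, and Pmepa1 in Y665H against Y665F males had an edgeR adjusted p of 0.0827. Over all genes the counts with the block were 676, 32, 0 and 825 in the same order of comparisons.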
